A study of Mus musculus with 9 samples.

Results

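The Rab GTPases of vesicle traffic were examined in mouse bone marrow-derived macrophages (BMDMs) by RNA-seq. Members were every gene whose symbol was Rab followed by a number and at most a letter and a further digit, which gave 57 of the 28379 genes in the deposited table. The rule used names only and no measured value. Every group, the controls included, was grown for 48 h in M-CSF at 20 ng/ml, the cytokine that keeps macrophage precursors alive. The PBS group had no further cytokine. RANKL, which drives macrophage precursors to become osteoclasts, was added at 100 ng/ml in the other two groups, 1 of which, RANKL + Vit D + K, also had vitamin D at a dose of 1000 nM together with a vitamin K dose of 20 μM. The vitamin K dose is that of the sample labels, and the study's methods give a higher dose. Each group had 3 libraries, numbered 1 to 3. The study's methods describe cells from C57BL/6J mice and pooled RNA, and no source used here states that the 3 libraries of a group came from separate animals, so the p-values measure the spread between these libraries, which may be technical.

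Rab proteins are small GTPases that switch between a GTP-bound form, which recruits effectors to a membrane, and a GDP-bound form, which is extracted to the cytosol. Guanine nucleotide exchange factors (GEFs) load GTP, GTPase-activating proteins (GAPs) hasten its hydrolysis, and escort and prenyltransferase proteins give each Rab the lipid anchor on cysteines at its carboxyl end. Each Rab marks particular membranes, such as Rab5 on early endosomes, Rab11 on recycling endosomes and Rab7 on late endosomes and lysosomes, and osteoclasts use lysosome-related secretion to form the ruffled border through which bone is resorbed.

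The ends of the coding sequences are shown because they carry the cysteine codons that receive the anchor, the feature shared by all 57 members that the choice by name did not use. Each line gives the last 30 coding bases with the stop codon, 5′ to 3′ on the coding strand, from GENCODE M21 transcripts on GRCm38, with cysteine codons in capitals.
Rab38: gtcagcTGCtctggcTGTgccaaatcctag
Rab7: aaggcctccgcagaaagcTGCagtTGTtga
Rab7b: ccaggccagccaaagagcagaTGCTGCtga
Rab29: aagccctcctctggctggacaTGCTGCtag
Rab27a: gagaaggagaaggggttgTGTggcTGTtga
Rab44: tcaaccaagagagctggcTGCTGCcactga
Rab5a: ccagccagaagccagTGTTGTagtaactga
Rab31: agcttgcaagccagccgtcggTGCTGCtga
Rab6a: ccagtcaatgaaggcggcTGTtccTGCtaa
Rab28: cctcggagctccatgTGTgcagtgcagtga
These stretches lie in the last coding exon of each gene, at chr7:88490731-88490760 on the plus strand for Rab38, chr6:88000435-88000464 on the minus strand for Rab7, chr1:131711668-131711697 on the plus strand for Rab7b and chr1:131872551-131872580 on the plus strand for Rab29. Rab27a ends at chr9:73095427-73095456 and Rab44 at chr17:29148246-29148275, both on the plus strand.

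Among the last 5 codons, 20 members ended in cysteine, any residue, cysteine, as Rab7, Rab27a and Rab6a do. A further 14 ended in a pair of cysteines, as Rab7b, Rab29 and Rab31 do. In 9 members, Rab38, Rab28, Rab18, Rab40b, Rab40c, Rab13, Rab23, Rab8a and Rab8b, a single cysteine codon stood the fourth from the end. The remaining members had a cysteine pair followed by 1 residue in 3 members, 2 residues in 5 and 3 residues in 6. Rab44 stood apart in length, with 973 codons against 207 in Rab7 and 211 in Rab38.

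Library totals ran from 65915112 to 68229647 counts, so depth differed little between groups. All 7 macrophage markers (Adgre1, Csf1r, Cd68, Itgam, Mertk, Lyz2, Mrc1) had a mean of at least 1 FPKM (a level corrected for gene length and sequencing depth) in every group. Their summed FPKM was 26362 to 30532 in PBS, 16671 to 24245 in RANKL and 4529 to 11552 in RANKL + Vit D + K, and against RANKL edgeR called 4 of the 7 lower (Adgre1, Csf1r, Lyz2, Mertk) and Cd68 higher with the vitamins. The part of this fall in the Rab changes was not tested. The summed FPKM of 10 osteoclast markers was 23.6 to 31.8 in PBS, 489 to 1022 in RANKL and 70.4 to 100.4 in RANKL + Vit D + K libraries. Against RANKL, edgeR called 8 of the 10 lower with the vitamins and did not call Atp6v0d2. Itgb3 was called higher, at 2.26 to 4.65 FPKM in RANKL and 3.83 to 18.5 with vitamins. Neutrophil genes summed to 11.1 to 128 FPKM in PBS, 11.3 to 148 in RANKL and 0.551 to 1.72 in RANKL + Vit D + K, where Mpo, Elane, Ly6g, Retnlg, Ltf and Camp were all at 0. Stromal and mast cell or basophil markers stayed under 0.62 and 0.073 FPKM in sum. The 5 erythroid and megakaryocyte markers in the table summed to 6.75 to 32.8 FPKM in PBS, 3.59 to 14.8 in RANKL and 10.6 to 18.7 with vitamins. Of 5 lymphoid genes in the table, Il7r alone exceeded 1 FPKM, at 36.9 to 154 in RANKL + Vit D + K against 4.89 to 7.35 in the other groups. RANKL + Vit D + K library 2 stood apart from libraries 1 and 3 of its group, with a median absolute log2 difference of 0.57 and 0.461 from them, against 0.224 between libraries 1 and 3.

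The Rab family was expressed at levels that spanned from under 0.1 FPKM to about 200 FPKM. A mean of at least 10 FPKM in some group was reached by 30 members, 11 members peaked between 1 and 10 FPKM, and 16 stayed under 1 FPKM in every group. Rab7, the late endosome and lysosome Rab, was the most abundant, at a mean of 184 FPKM over the 9 libraries and 16% of all Rab FPKM. Rab5c of early endosomes (95 FPKM), Rab8b of exocytic transport (87.0), Rab1a of ER-to-Golgi transport (69.4) and Rab32 of lysosome-related organelles (66.6) followed, and these 5 genes held 43.6% of the family's FPKM. The order below Rab7 differed between groups, as in RANKL, where Rab1b (78.7 FPKM) was above Rab8b (77.6) and Rab1a (72.7). Summed over all members, the FPKM was 1208 ± 64.1 (SD, n = 3) in PBS, 1188 ± 27.7 in RANKL and 1059 ± 39.6 in RANKL + Vit D + K, so that the groups PBS and RANKL lay within their spread.

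Changes were tested with edgeR's quasi-likelihood test over 17002 genes, of which 50 were Rab members, and a gene was called at a Benjamini-Hochberg adjusted p under 0.05 over all 17002. The other 7 members (Rab25, Rab15, Rab3c, Rab40b, Rab30, Rab39b and Rab26) had at most 25 counts in any library and were not tested. In bulk RNA, fewer cells of a type and less RNA per cell cannot be told apart.

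The comparison of RANKL with PBS asks what the osteoclast-inducing cytokine changed in the Rab family, and few members passed the test. RANKL called 614 genes, 3.61% of those tested, and 1 of 50 Rab members, Rab11b, which was lower, against 1.26% of genes called lower. Rab11b, which directs recycling endosomes, was at 20.0, 20.7 and 19.8 FPKM in PBS libraries 1 to 3, at 17.2, 16.2 and 16.5 in RANKL and at 13.0, 14.6 and 13.3 in RANKL + Vit D + K. The groups PBS and RANKL did not overlap, and Rab11b fell by 0.40 on the log2 scale (SE 0.09, edgeR adjusted p = 0.0497). The call was lost in 13 of 16 alternatives. With the replicate number as a block over all 9 libraries, the edgeR adjusted p of Rab11b was 0.0568. No member was then called, against 825 of all genes. The numbers did not pair the vitamin libraries with the others, and no paired fit of PBS and RANKL alone was run. Counts on the processed copy Rab11b-ps2 came to 5.53% of those on Rab11b. No member was called higher by edgeR with all 9 libraries. Without RANKL + Vit D + K library 2, which stood apart from the other vitamin libraries and is part of the shared model, edgeR called 9 of 52 members in this comparison, against 10.7% of all genes. Rab38 was higher (1 member against 5.46% of all genes), and Rab7b, Rab9, Rab10, Rab11b, Rab12, Rab22a, Rab31 and Rab33b were lower (8 against 5.23%). At an unadjusted p under 0.05, 2 members were higher and 6 lower, against 9.96% and 8.65% of all genes. DESeq2 called 1 higher (Rab38) and 2 lower (Rab11b and Rab33b), against 6.21% and 3.78% of all genes, and limma on log2(FPKM + 1) called Rab38 higher, against 3.4% of all genes. The median log2 fold change over the 50 members was -0.15, against -0.04 over all genes tested, and 39 of the 50 lay within 0.5 of 0.

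The addition of vitamins D and K to RANKL changed more members. Of the 50 tested, 20 were called, 40% against 33.7% of all genes tested, with 8 higher against a background of 16.4% of genes and 12 lower against 17.2%. With limma on log2(FPKM + 1) the split was 6 higher against 13% of all genes and 18 lower against 22.4%, and 36.8% of all calls were higher against 48.8% with edgeR. The median over the members was -0.15 on the log2 scale, against -0.04 over all genes. Rab7b, Rab9, Rab5a, Rab22a, Rab6a, Rab18, Rab28 and Rab40c rose, and Rab38, Rab44, Rab42, Rab39, Rab19, Rab1b, Rab29, Rab3d, Rab6b, Rab31, Rab4b and Rab5b fell. In 19 of these 20, Rab9 being the exception, the libraries of the groups RANKL and RANKL + Vit D + K did not overlap in FPKM, as was so for 93.4% of all genes called and 46.2% of all genes tested. The members that were not called lay between -2.89 and 2.72 on the log2 scale, the extremes being genes of under 0.1 FPKM, and 24 of these 30 were within 0.5 of 0.

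RANKL + Vit D + K library 2 was the vitamin library nearest to the RANKL mean in 16 of the 20 called members. The same share over all called genes was not computed, and library 2 stood apart over the genes as a whole. Without library 2, edgeR called 30 of 52 members, 12 higher and 18 lower, against 46.4% of all genes, and all 20 members called with it were among them. Leaving out any other library lowered the count. It was 8 without RANKL library 1 (18.1% of all genes called) or RANKL + Vit D + K library 3 (18.5%), 13 without RANKL library 3 (19.8%) or RANKL + Vit D + K library 1 (21.1%), 17 without RANKL library 2 (28.8%) and 16 without any 1 PBS library (27.1% to 28.2%).

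**Figure D1:**
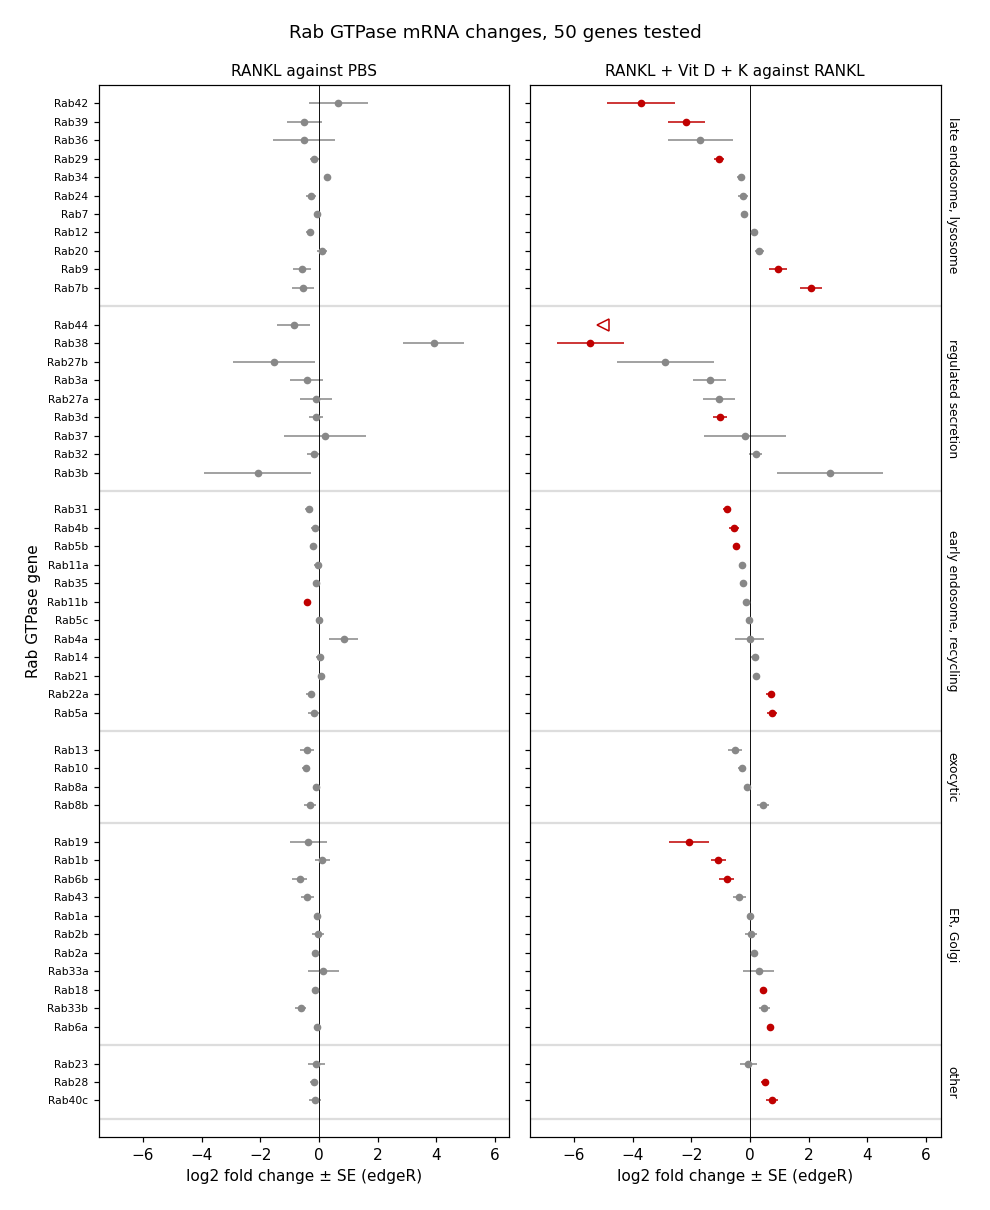
The 50 tested Rab genes are grouped by role on the y axis, with the log2 fold change and its SE from edgeR on the x axis, RANKL against PBS on the left and RANKL + Vit D + K against RANKL on the right. Red marks the 1 member called on the left and the 20 called on the right, and the open triangle is the bound for Rab44, which had no count in the vitamin libraries.

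Among Rabs of late endosomes and lysosomes, 2 of 11 tested members rose with the vitamins, 3 fell and 6 were not called, against 16.4% of all genes higher and 17.2% lower. Rab7, which drives the fusion of late endosomes with lysosomes and is needed for the ruffled border, was at 199, 194 and 184 FPKM in PBS, at 208, 199 and 198 in RANKL and at 148, 178 and 146 in RANKL + Vit D + K. All 3 vitamin libraries lay below all 6 others. The log2 difference from RANKL was -0.21 (SE 0.09, edgeR adjusted p = 0.112), which did not pass the threshold, whereas DESeq2 and limma called it lower, and the exact two-sided permutation p was 0.1, the smallest that 3 against 3 allows. Against PBS the difference was -0.27 (edgeR adjusted p = 0.046), a call lost in 10 of 16 alternatives.

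Rab7b, a separate gene named for its likeness to Rab7 that acts between endosomes and the trans-Golgi network, moved in the opposite direction. It was at 20.0, 19.5 and 17.5 FPKM in PBS, at 14.7, 14.0 and 14.0 in RANKL and at 69.7, 23.6 and 66.6 in RANKL + Vit D + K. Every vitamin library was above every other library, with library 2 the closest to PBS. Rab7b rose by 2.09 on the log2 scale over RANKL (SE 0.38, edgeR adjusted p = 0.00425). The FPKM ratio of Rab7 to Rab7b was thus 9.95 to 10.5 in PBS, 14.1 to 14.2 in RANKL, and 2.13, 7.53 and 2.19 in the vitamin libraries.

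Rab9, which returns mannose 6-phosphate receptors from late endosomes to the Golgi, was at 22.6, 29.1 and 23.0 FPKM in PBS, 18.9, 16 and 19.6 in RANKL and 39.5, 17.4 and 36.7 in RANKL + Vit D + K. Libraries 1 and 3 with vitamins were above every other library and library 2 lay within the RANKL range. The rise over RANKL was 0.96 (SE 0.31, edgeR adjusted p = 0.0423), and the call was lost in 13 of 16 alternative settings.

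Rab29, a partner of the kinase Lrrk2 at lysosomes and the Golgi, fell. It was at 22.7, 25.5 and 21.2 FPKM in PBS, 24.9, 18.9 and 23.7 in RANKL and 8.22, 11.7 and 9.79 with vitamins, a log2 change of -1.05 from RANKL (SE 0.16, edgeR adjusted p = 0.00204). Rab39, linked to phagosome and autophagy traffic, was at 1.78 to 2.10 FPKM in PBS, 1.42 to 1.55 in RANKL and 0.0545, 0.684 and 0.207 with vitamins (log2 change -2.17, SE 0.62, edgeR adjusted p = 0.0256; lost in 5 of 16 alternatives). Rab42 had 0.467 to 1.10 FPKM in RANKL and was at 0, 0.153 and 0 with vitamins (log2 change -3.71, SE 1.17, edgeR adjusted p = 0.037). Both were low genes, and the vitamin libraries lay below all others. The Rab42 call was lost in 11 of 16 alternatives, whose values ran from -8.30 to -0.69. Library 2 held the only Rab42 counts of its group, 9 in all, and without it Rab42 was at least 13.9-fold lower than in RANKL, taking 3 counts per library as the floor. Without library 2 the log2 change of Rab39 was -3.29.

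Rabs of regulated secretion and lysosome-related organelles gave 3 members lower, none higher and 6 not called of 9 tested in RANKL + Vit D + K against RANKL, against 16.4% of all genes higher and 17.2% lower. For the higher side, none was reached at an unadjusted p under 0.05 in edgeR (21.1% of all genes), and none was called by DESeq2 (19%) or limma (13%). The median log2 change of the 9 was -1.06, the value of Rab27a, against -0.04 over all genes. Rab27b, Rab3b and Rab37 among the 9 were under 0.1 FPKM in every library. The share of these Rabs in all Rab FPKM was 7.44% in RANKL and 7.22% with vitamins. Their summed FPKM overlapped, at 81.9 to 98.8 in RANKL and 64.4 to 87.4 with vitamins.

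Rab38, which delivers cargo to lysosome-related organelles such as melanosomes, was low in PBS, higher in RANKL and near 0 with vitamins. It was at 0.142, 0.0829 and 0.123 FPKM in PBS, at 2.37, 2.43 and 1.16 in RANKL and at 0, 0 and 0.112 with vitamins, from 10 to 17 counts in PBS and 142 to 287 in RANKL. The RANKL libraries were above all 6 others, and PBS and vitamin libraries overlapped. The log2 change from PBS to RANKL was 3.91 (SE 1.03, edgeR adjusted p = 0.0743), short of the threshold in the model of 3 groups and past it in DESeq2, limma, the fit of those 2 groups alone and without any 1 vitamin library. From RANKL to RANKL + Vit D + K it fell by 5.44 (SE 1.14, edgeR adjusted p = 0.00757), a call kept in all 16 alternatives, whose values ran from -10.82 to -1.50. Vitamin library 3 held the only Rab38 counts of its group, 14 in all, and without it Rab38 was at least 79.1-fold lower than in RANKL, taking 3 counts per library as the floor. The exact two-sided permutation p was 0.1 for each change, the smallest possible. Rab38 was lowest among RANKL libraries in library 3, where the summed osteoclast markers were also lowest, and the part of osteoclast-marker levels in its change was not tested.

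Rab27a, which tethers secretory lysosomes and exosome-bearing endosomes to the plasma membrane, was at 1.18, 1.51 and 1.20 FPKM in PBS, 1.22, 1.19 and 1.52 in RANKL and 0.211, 1.31 and 0.285 in RANKL + Vit D + K. Vitamin libraries 1 and 3 were below every other library and library 2 lay among the PBS and RANKL values. The difference from RANKL was -1.06 (SE 0.55, edgeR adjusted p = 0.165; exact permutation p = 0.3). Without library 2 the difference was -2.19 (SE 0.26, edgeR adjusted p = 0.000202), and Rab27a was among the 10 further members called.

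Rab3d, a secretory granule Rab, was at 16.8, 18.5 and 17.9 FPKM in PBS, 18.4, 16.6 and 19.2 in RANKL and 5.02, 12.9 and 7.06 with vitamins. All vitamin libraries were below all others (log2 change from RANKL -1.01, SE 0.24, edgeR adjusted p = 0.0131), a call lost in 1 of 16 alternatives. Rab44, a long Rab with a calcium-binding part that is found in granulocytes and mast cells, had 126, 130 and 33 counts in RANKL libraries and none in the vitamin libraries, which is at least 32-fold lower, taking 3 counts per library as the floor. It was at 0.336, 0.377 and 0.531 FPKM in PBS. Neutrophil genes also fell in the vitamin libraries. Among RANKL libraries their sum was lowest in library 3, at 11.3 FPKM, where Rab44 was lowest too, at 0.0805 FPKM against 0.328 and 0.342 in libraries 1 and 2. Among PBS libraries their sum was also lowest in library 3, at 11.1 FPKM, where Rab44 was highest. Their part in the Rab44 difference was not tested. Rab32, the most abundant of the group, was at 50.2 to 95.9 FPKM in PBS, 57.9 to 76.4 in RANKL and 59.0 to 72.0 with vitamins, and the 3 groups overlapped. Library 2 was highest in every group for Rab32. The same held for Pf4, of the erythroid and megakaryocyte markers, at 29.7, 12.4 and 18.4 FPKM in library 2 of PBS, RANKL and RANKL + Vit D + K. Of the other markers in that list, Ppbp and Itga2b were also highest in library 2 of every group, and Alas2 and Klf1 were not. The part of such cells was not tested.

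**Figure D2:**
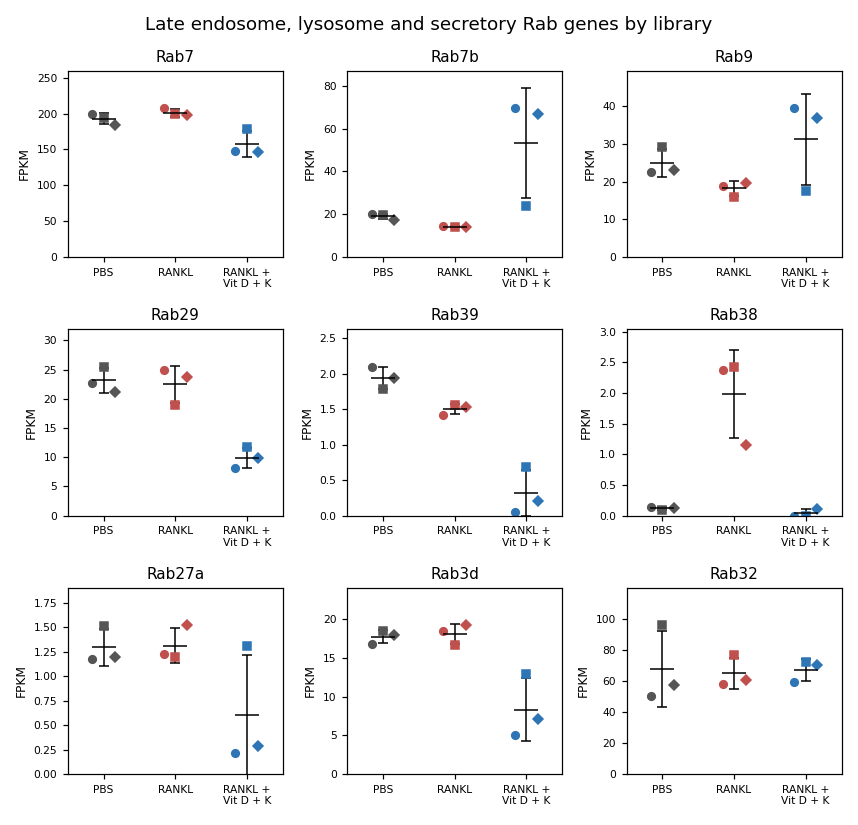
FPKM in each library (circle library 1, square library 2, diamond library 3) of 9 late endosome, lysosome and secretory Rabs in the groups PBS, RANKL and RANKL + Vit D + K, with the mean (bar) and SD (whiskers, n = 3, cut at 0). Rab7b rises to 69.7 and 66.6 FPKM in vitamin libraries 1 and 3 and Rab38 is above 1 FPKM in the RANKL libraries alone.

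Early endosome and recycling Rabs gave 2 members higher, 3 lower and 7 not called of 12 tested, against 16.4% of all genes higher and 17.2% lower. The 3 genes of the Rab5 subfamily, the regulators of early endosome fusion, parted. Rab5a was at 13.4, 16 and 13.9 FPKM in PBS, 13.3, 14.2 and 14.1 in RANKL and 24.0, 16.2 and 22.2 in RANKL + Vit D + K, and rose by 0.75 over RANKL (SE 0.18, edgeR adjusted p = 0.0142), a call lost in 2 of 16 alternatives. Rab5b was at 39.6, 43.0 and 39.4 FPKM in PBS, 40.2, 39.0 and 37.1 in RANKL and 20.3, 30.6 and 25.4 with vitamins, a log2 change of -0.48 from RANKL (SE 0.11, edgeR adjusted p = 0.0123), with the call lost in 1 of 16 alternatives. Rab5c, the most abundant of them, was at 97.7, 112 and 96.8 FPKM in RANKL and 82.3, 106 and 81.5 with vitamins, with a difference of -0.04 (SE 0.10, edgeR adjusted p = 0.786). The ratio of Rab5a to Rab5b was 0.330 to 0.380 in RANKL and 1.18, 0.530 and 0.875 in the vitamin libraries.

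Rab31 and Rab22a, close relatives of the Rab5 group that serve endosome-to-Golgi and early endosome traffic, moved in opposite directions. Rab31 was at 74.4, 72.6 and 71.8 FPKM in PBS, 64.3, 64.7 and 61.4 in RANKL and 26.6, 44.5 and 30.1 with vitamins (log2 change from RANKL -0.78, SE 0.13, edgeR adjusted p = 0.00343). Rab22a was at 10.9, 11.2 and 11.3 FPKM in RANKL and 17.3, 13.2 and 18.1 with vitamins (log2 change 0.71, SE 0.16, edgeR adjusted p = 0.0106). Rab4b, of fast recycling, fell from 19.4, 15.8 and 14.2 FPKM in RANKL to 8.87, 13.1 and 9.0 (log2 change -0.54, SE 0.16, edgeR adjusted p = 0.0275, lost in 4 of 16 alternatives), with 52.5% of its 75-base transcript stretches also found in the overlapping Gm21983.

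In the exocytic list none of 4 tested members (Rab8a, Rab8b, Rab10, Rab13) was called against RANKL by edgeR, against 16.4% of all genes higher and 17.2% lower. None was called by DESeq2 (40.6% of all genes) or limma (35.4%), and none had an unadjusted edgeR p under 0.05 (44.7%). Rab8b, which serves transport to the cell surface, was at 86.2, 92.6 and 88.1 FPKM in PBS, 83.4, 64.9 and 84.4 in RANKL and 105, 74.9 and 104 with vitamins. The RANKL values lay below those of PBS, the vitamin range overlapped both, and the log2 change from RANKL was 0.44 (SE 0.20, edgeR adjusted p = 0.117). Without vitamin library 2, edgeR called Rab8b higher (log2 change 0.64, adjusted p = 0.00553) and Rab10 lower (-0.37, adjusted p = 0.0376). In that setting 46.4% of all genes were called.

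Of the 11 tested Rabs of the ER and Golgi, 2 rose, 3 fell and 6 were not called, against 16.4% of all genes higher and 17.2% lower. Rab1a and Rab1b carry out the same ER-to-Golgi step, and the vitamins changed Rab1b. Rab1b was at 70.3, 66.9 and 62.3 FPKM in PBS, 84.5, 79.1 and 72.4 in RANKL and 22.1, 57.0 and 24.9 with vitamins (log2 change from RANKL -1.08, SE 0.27, edgeR adjusted p = 0.0144), a call lost in 2 of 16 alternatives. Rab1a was at 72.2, 79.0 and 66.8 FPKM in RANKL and 62.5, 69.6 and 64.8 with vitamins (log2 change 0.00, SE 0.10, edgeR adjusted p = 0.99), a difference whose sign changed between settings. The ratio of Rab1a to Rab1b was 0.854 to 0.998 in RANKL and 2.82, 1.22 and 2.6 with vitamins.

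Rab6a, of traffic within the Golgi and back to the ER, was the most even rise, at 21.0, 23.4 and 20.4 FPKM in RANKL and 30.4, 31.1 and 31.2 with vitamins (log2 change 0.67, SE 0.10, edgeR adjusted p = 0.0021). Its transcripts share 17.1% of their 75-base stretches with the overlapping Mrpl48. Rab6b, its relative best known in neurons, was at 2.21, 1.36 and 1.61 FPKM in RANKL and 0.708, 1.3 and 0.747 with vitamins (log2 change -0.80, SE 0.25, edgeR adjusted p = 0.0366), a call lost in 10 of 16 alternatives. The Rab6a to Rab6b ratio was 9.49 to 17.1 in RANKL and 24.0 to 43.0 with vitamins. Rab18, of lipid droplets and the ER, was at 13.7, 15.0 and 13.9 FPKM in RANKL and 18.5, 16.1 and 17.6 with vitamins (log2 change 0.45, SE 0.12, edgeR adjusted p = 0.021), a call lost in 5 of 16 alternatives. Rab19 was at 2.35, 1.3 and 2.63 FPKM in RANKL and 0.0938, 1.05 and 0.265 with vitamins (log2 change -2.08, SE 0.67, edgeR adjusted p = 0.0406), a call lost in 9 of 16 alternatives, and without vitamin library 2 the change was -3.28.

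**Figure D3:**
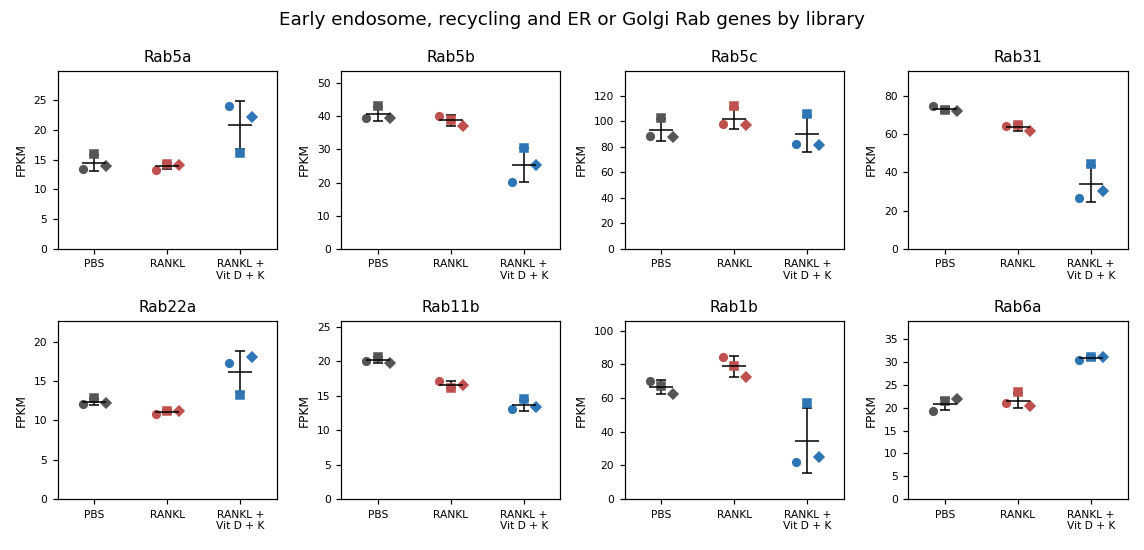
FPKM in each library (circle library 1, square library 2, diamond library 3) of 8 early endosome, recycling and ER or Golgi Rabs in the 3 groups, with the mean (bar) and SD (whiskers, n = 3). Rab6a is at 30.4 to 31.2 FPKM in the vitamin libraries, while Rab31 and Rab1b are lower there, library 2 being nearest to RANKL.

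Of the remaining 3 tested members, Rab28, which acts in cilia and photoreceptors, rose from 4.43, 4.50 and 4.71 FPKM in RANKL to 5.24, 6.26 and 6.22 (log2 change 0.52, SE 0.13, edgeR adjusted p = 0.0139), a call lost in 4 of 16 alternatives. Rab40c, which recruits a ubiquitin ligase, rose from 9.23, 9.29 and 8.40 FPKM to 15.4, 10.1 and 14.5 (log2 change 0.74, SE 0.21, edgeR adjusted p = 0.0236), a call lost in 6 of 16 alternatives.

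**Figure D4:**
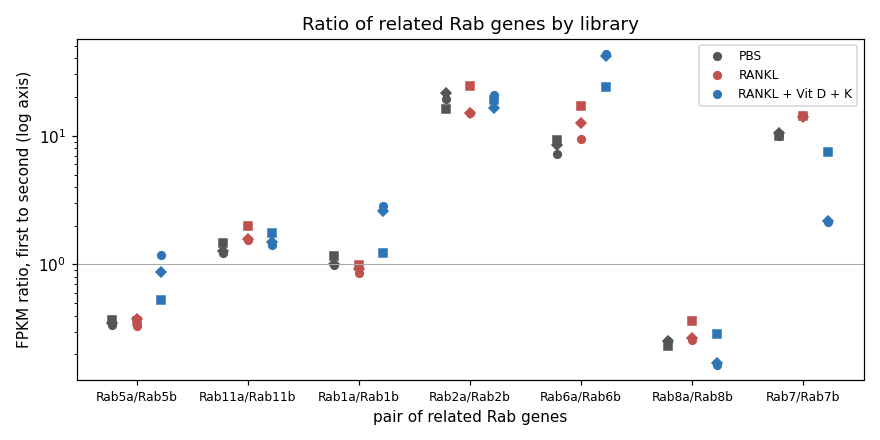
FPKM ratio (log axis) of 7 pairs of related Rabs in each library (circle library 1, square library 2, diamond library 3) of PBS (grey), RANKL (red) and RANKL + Vit D + K (blue). The Rab7 to Rab7b ratio falls to 2.13 and 2.19 in vitamin libraries 1 and 3, and the Rab2a to Rab2b ratio overlaps between the groups.

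Against PBS, RANKL + Vit D + K called 23 of 50 members, 46% against 40.8% of all genes tested, with 5 higher and 18 lower against backgrounds of 19.8% and 21%. This comparison shares its vitamin libraries with the one above. Rab10 and Rab13, exocytic Rabs chosen here after their values were seen, were at 67.0, 57.5 and 70.3 FPKM and 4.07, 6.40 and 4.59 FPKM in PBS and at 31.8, 49.8 and 38.7 FPKM and 2.45, 2.87 and 2.42 FPKM with vitamins. Their log2 changes from PBS were -0.69 (edgeR adjusted p = 0.00442) and -0.93 (edgeR adjusted p = 0.014).

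The partners of the Rabs were read from 6 lists of 134 genes, of which 128 were tested. These lists were chosen with earlier results of these data known, so their shares are a description only. RANKL against PBS called 4 higher and 1 lower of them, 3.91% against 3.61% of all genes, and without vitamin library 2 it called 10 higher and 14 lower, 18.8% against 10.7%. RANKL + Vit D + K against RANKL called 43 higher (33.6% against 16.4% of all genes) and 23 lower (18% against 17.2%), with a median log2 change of 0.17 against -0.04 over all genes. With limma on log2(FPKM + 1) the split was 29 higher (22.7% against 13% of all genes) and 30 lower (23.4% against 22.4%). These shares of all genes are the background for each list of partners.

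The list of exchange factors and linked genes gave 8 higher and 8 lower of 36 with the vitamins, and 5 and 10 with limma. Dennd4c rose by 1.91 (SE 0.33, edgeR adjusted p = 0.00376) and Rab3gap2, a subunit of the Rab18 exchange complex, by 2.07 (SE 0.33, edgeR adjusted p = 0.00277). Rin3, an exchange factor for Rab5 proteins, was at 13.3, 7.41 and 13.2 FPKM in RANKL and 0.945, 3.8 and 1.48 with vitamins (log2 change -2.36, SE 0.45, edgeR adjusted p = 0.00541), and Rab3il1 changed by -2.11 (edgeR adjusted p = 0.00101). With RANKL over PBS, Dennd2a rose by 2.34 (SE 0.29, edgeR adjusted p = 0.00511), Rin1 rose by 1.46 (edgeR adjusted p = 0.0145), and Dennd5a changed by -0.57 (edgeR adjusted p = 0.0186).

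The GAPs gave 13 higher and 5 lower of 33 with the vitamins, against 16.4% and 17.2% of all genes, and 10 and 9 with limma, against 13% and 22.4%. Tbc1d2, a GAP for Rab7, was at 2.47, 2.31 and 2.34 FPKM in RANKL and 12.4, 4.91 and 10.1 with vitamins (log2 change 2.13, SE 0.34, edgeR adjusted p = 0.00259). Tbc1d9 rose by 1.79 (edgeR adjusted p = 0.00237), while Tbc1d8 changed by -2.35 (SE 0.17, edgeR adjusted p = 0.000195) and Tbc1d10c, at 0.105 to 0.130 FPKM in RANKL, by -2.93 (edgeR adjusted p = 0.0293). Sgsm1 had no count in PBS and 9, 68 and 7 counts in RANKL, at least 9.23-fold higher over the floor of 3 counts per library, and at least 2.62-fold without RANKL library 2. Its edgeR adjusted p of 0.0497 became 0.0631 with the replicate block, and limma did not call Sgsm1 (adjusted p = 0.452).

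Of the 10 escort and prenylation genes, 3 rose and 2 fell, and with limma 1 rose and 2 fell. Rabggtb, the catalytic subunit of the Rab prenyltransferase, was at 15.5, 17.8 and 17.4 FPKM in RANKL and 39.9, 21.7 and 33.1 with vitamins (log2 change 1.08, SE 0.24, edgeR adjusted p = 0.00907). Ggps1, which makes the geranylgeranyl lipid, rose by 0.58 (edgeR adjusted p = 0.0334). The escort protein Chml changed by -0.55 (edgeR adjusted p = 0.0257).

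The list of lysosome effectors and their relatives gave 10 higher and 3 lower of 19, against 16.4% and 17.2% of all genes, and 9 and 4 with limma, against 13% and 22.4%. Rilp, the Rab7 effector that recruits dynein, was at 4.79, 3.74 and 3.86 FPKM in RANKL and 0.695, 1.12 and 0.900 with vitamins (log2 change -2.05, SE 0.24, edgeR adjusted p = 0.00083). Its relatives Rilpl1 and Rilpl2 rose by 2.5 (edgeR adjusted p = 0.0052) and 2.67 (SE 0.55, edgeR adjusted p = 0.00703), Rilpl2 from 21.0, 16.5 and 18.6 FPKM in RANKL to 165, 28.0 and 118. Lrrk1 changed by -1.11 (edgeR adjusted p = 0.000733).

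Early endosome and recycling effectors gave 8 higher and 2 lower of 22, and 4 and 3 with limma. Eea1, the tether that Rab5 recruits, was at 18, 18.3 and 19.8 FPKM in RANKL and 76.6, 46.4 and 77.8 with vitamins (log2 change 2.01, SE 0.23, edgeR adjusted p = 0.00083), and Rabep1, another Rab5 effector, rose by 1.39 (edgeR adjusted p = 0.00739). Rab11fip4, at 0.136 to 0.230 FPKM in RANKL, changed by -3.21 (edgeR adjusted p = 0.00652) and Rab11fip5 by -0.72 (edgeR adjusted p = 0.0298).

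Secretory effectors gave 1 higher and 3 lower of 8 tested, and 0 and 2 with limma. Myo5a, the myosin that carries Rab27a-bound organelles, rose by 1.01 (SE 0.31, edgeR adjusted p = 0.0342), with library 2 at 31.4 FPKM among the RANKL values of 29.4 to 33.8. Sytl1, a Rab27 effector, had 18, 24 and 13 counts in RANKL and none with vitamins, at least 6.08-fold lower over the floor. Mlph, which links Rab27a to Myo5a, had no count in the vitamin libraries and at most 0.0716 FPKM in RANKL. With RANKL over PBS, Anxa2 rose from 49.3, 60.9 and 40.1 FPKM to 114, 165 and 103 (log2 change 1.22, SE 0.25, edgeR adjusted p = 0.0352).

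**Figure D5:**
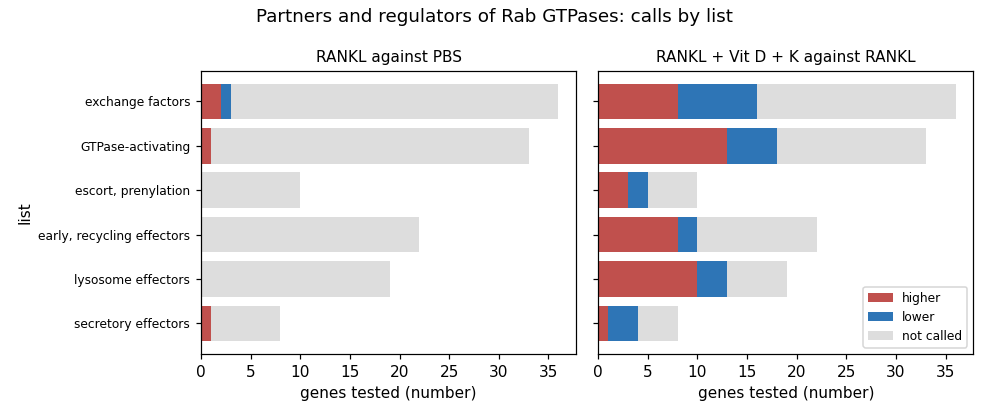
Number of tested genes (x axis) called higher (red), lower (blue) or not called (grey) in each of 6 lists of Rab partners, for RANKL against PBS on the left and RANKL + Vit D + K against RANKL on the right. RANKL called 5 of 128 (3.91% against 3.61% of all genes) and the vitamins 66 of 128 (51.6% against 33.7%).

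Promoter windows of 250 bases before to 50 after the start, from RefSeq on GRCm38.p6, were matched for 46 members with 58 starts. The motif CACGTG, the same on both strands, lay in 6 of the 58 windows (10.3%) against 7.15% of 32851 windows. These included the Rab5a window and a Rab27a window, while the other Rab27a window had no match. TCATGTG on either strand lay in 3 (5.17%) against 3.77%.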

How the data were processed

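BMDM RNA was sequenced as paired reads from poly(A) libraries. The authors deposited a gene table with a count and an FPKM per library. The deposited counts are whole numbers per gene that the authors had not normalized, and the deposited FPKM values were scaled by the authors for gene length and depth. A value of 4 occurred 2.22 times as often as 3 and 5 did on average, and whether 1 count is 1 read is therefore not certain. The submitters' processing notes name cutadapt 1.9, HISAT2 2.0.4, StringTie 1.3.4d and edgeR, and the build hg38, although the genes are mouse. Coordinates in the table equal those of GENCODE M21 (GRCm38) for 90.19% of 28379 genes and 51 of 57 Rab members, so the coordinates printed are those of GENCODE M21.

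Members and lists were chosen with earlier results of these data known. Counts were filtered with filterByExpr, scaled by TMM and tested with edgeR 4.0.16 (R 4.3.3) in a single model of 9 libraries, after a check on simulated data. Alternatives were DESeq2 1.42.0, limma 3.58.1 on log2(FPKM + 1) and log2(FPKM + 0.1), median-of-ratios scaling, no filter, fits of 2 groups, a replicate block and each library left out. The log2 fold changes are from edgeR, whereas levels are FPKM. Same-numbered libraries of PBS and RANKL deviated together weakly (correlations 0.122, 0.219 and 0.155 for numbers 1 to 3, from shared label numbers). Libraries of unlike number were not compared, so whether the numbers pair them is not settled. Genes named were Rab38, Rab7, Rab27a, every Rab called in RANKL against PBS or RANKL + Vit D + K against RANKL, the 5 most abundant, and up to 2 partners per list, direction and comparison. A partner that this rule names is not reported here. Floors cover counting error only. Protein sequences were not used here, and coding ends were read from transcripts in their place. Transcripts were compared in stretches of 75 bases: 31 members shared none with another gene, and no member shared any with another member.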

Additional observations from a re-analysis of the deposited data

How the results depend on the processing

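For RANKL against PBS, 614 genes were called, against 1699 with DESeq2, 1736 with only the 2 groups fitted and 126 to 1903 with a library left out, the highest being without RANKL + Vit D + K library 2. The Rab count of 1 (Rab11b, lower) became 3 with DESeq2 and 4 with the 2 groups. It became 0 with median-of-ratios scaling, without the filter, with the replicate block and without any 1 library of PBS or RANKL. Without vitamin library 1 or 3 the count was 1, but the gene called was Rab38, higher. Without vitamin library 2 the count was 9. For RANKL + Vit D + K against RANKL, the Rab count of 20 became 12 with the 2 groups, where the count of all genes went from 5725 to 3846. With a library left out the Rab count was 8 to 30, and that of all genes 3199 to 8259. Against PBS, the Rab count ranged from 12 of 52 (28.2% of all genes called) to 35 of 52 (49.8%) with a library left out. With limma the share of Rab calls that were higher fell to 25% (6 higher and 18 lower), and with log2(FPKM + 0.1) the median of all genes moved from -0.04 to -0.16. The numbers do not pair the vitamin libraries with the others (correlations 0.00625 to 0.107 with RANKL). The replicate block gave 18 Rab calls against RANKL, where 5873 of all genes were called, and 22 against PBS. Some small differences changed sign, the cause of which was not tested. From PBS to RANKL, limma on log2(FPKM + 1) and log2(FPKM + 0.1) gave Rab7 0.065 and 0.065, Rab27a 0.012 and 0.020, Rab18 0.0051 and 0.0055, Rab3d 0.027 and 0.028, Rab40c 0.010 and 0.012, Rab6a 0.048 and 0.050, and Rab1a 0.056 and 0.057, and Rab7 was 0.00021 without the filter. With a library left out, the values ranged from -0.0953 to 0.0232 for Rab7, -0.244 to 0.0600 for Rab27a, -0.158 to 0.0527 for Rab40c, -0.0942 to 0.0490 for Rab1a, -0.298 to 0.188 for Rab32, -0.0973 to 0.0267 for Rab6a, -0.161 to 0.00192 for Rab3d and -0.0200 to 0.123 for Rab5c. From RANKL to RANKL + Vit D + K, Rab1a was -0.0095 with DESeq2, -0.0095 with median-of-ratios scaling, -0.037 without the filter, -0.14 and -0.15 with limma, -0.0093 with the 2 groups and -0.0316 to 0.0285 with a library left out, and Rab5c was -0.0957 to 0.00261 with a library left out. From PBS, with a library left out, Rab32 was -0.111 to 0.374, Rab5c -0.0874 to 0.0763 and Rab1a -0.0844 to 0.0434. Rab6a, Rab7b, Rab22a, Rab29, Rab31, Rab38 and Rab44 kept their calls against RANKL in all 16 alternatives.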
